A study of Rattus norvegicus with 6 samples.

Results

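The acetylcholine receptors of the rat adrenal gland were examined through 18 probe sets of an oligonucleotide array, all those annotated to 10 genes, dim ones included. The genes were the neuronal nicotinic receptor subunits Chrna3, Chrna4, Chrna5, Chrna7, Chrnb2 and Chrnb4, the muscarinic receptors Chrm1, Chrm3 and Chrm4, and Ache, which encodes acetylcholinesterase. They were chosen by name, as 10 of the 4736 genes that a probe set names alone, and their 18 probe sets are part of the 8740 on the array that are not controls. Whole adrenal glands of 2 inbred strains had been profiled on 6 Affymetrix RG-U34A arrays. The Spontaneously Hypertensive Rat (SHR) gave 3 of them, and its usual normotensive counterpart, the Wistar-Kyoto rat (WKY), the other 3. No treatment, age or sex is given in the labels, and strain is the 1 factor in them that separates the groups. Hybridization run also differed in part with strain, as described below. Nothing in the labels ties a sample to an animal of its own, and the p-values therefore measure the spread among these samples alone, which may be technical. None of the receptor or Ache transcripts was called different between the strains.

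Of the 18 probe sets, 9 passed the filter on dim values and entered the main limma fit, and 0 of these 9 were called at an adjusted p under 0.05, beside 102 of all 5244 tested probe sets (1.95%). None of the 9 reached an unadjusted p under 0.05 either, a level that 13.9% of the tested probe sets reached. In a limma fit without the filter, 0 of the 18 were called, against 0.95% of all probe sets, and 0 passed unadjusted, against 11.1%. A missed threshold does not show that the strains have equal levels, so each difference is given below with its 95% interval. Differences are SHR minus WKY on the log2(intensity + 181.5) scale, which understates the change of dim probe sets, and errors are standard errors. Adjusted p are from limma, from the main fit for probe sets that passed the filter and from the fit without it for those that did not.

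Acetylcholine released by preganglionic sympathetic fibres of the splanchnic nerve is the main signal that makes chromaffin cells of the adrenal medulla discharge catecholamines. It opens nicotinic receptors, cation channels built of subunits arranged around a pore, and the depolarization opens calcium channels and triggers exocytosis. Muscarinic receptors, which act through G proteins, add a slower signal, and acetylcholinesterase ends both by splitting the transmitter. In sympathetic neurons and chromaffin cells the alpha subunit encoded by Chrna3 and the beta subunit encoded by Chrnb4 form the ganglionic type of receptor, in which the product of Chrna5 can take an accessory place. The product of Chrna7 forms a separate receptor of its own that binds alpha-bungarotoxin, and Chrna4 and Chrnb2 form the type most common in brain.

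Chrna5, Chrna3 and Chrnb4 lie next to each other on rat chromosome 8, in that order, with only a pseudogene and a non-coding gene annotated between them in RefSeq's GRCr8 annotation. The 250 bases before the annotated start of each are shown because these 3 genes encode the subunits of the ganglionic receptor and share 1 locus. They are RefSeq sequence of the GRCr8 assembly, from chr8:64265629-64265878 on the plus strand for Chrna5, chr8:64311252-64311501 on the minus strand for Chrna3 and chr8:64333110-64333359 on the minus strand for Chrnb4. Each is written 5′ to 3′ on the gene's strand, and capitals mark the GC box GGGCGG or its reverse complement CCGCCC.
Chrna5: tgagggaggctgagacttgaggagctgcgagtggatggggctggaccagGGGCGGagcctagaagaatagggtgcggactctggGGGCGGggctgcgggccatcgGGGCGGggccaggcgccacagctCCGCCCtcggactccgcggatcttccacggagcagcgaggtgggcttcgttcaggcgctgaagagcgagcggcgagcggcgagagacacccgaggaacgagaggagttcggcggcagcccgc
Chrna3: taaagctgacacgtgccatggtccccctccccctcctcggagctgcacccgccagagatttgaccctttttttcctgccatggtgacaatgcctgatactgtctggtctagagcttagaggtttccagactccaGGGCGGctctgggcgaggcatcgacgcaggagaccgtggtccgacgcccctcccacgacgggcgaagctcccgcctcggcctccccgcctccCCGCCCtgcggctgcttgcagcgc
Chrnb4: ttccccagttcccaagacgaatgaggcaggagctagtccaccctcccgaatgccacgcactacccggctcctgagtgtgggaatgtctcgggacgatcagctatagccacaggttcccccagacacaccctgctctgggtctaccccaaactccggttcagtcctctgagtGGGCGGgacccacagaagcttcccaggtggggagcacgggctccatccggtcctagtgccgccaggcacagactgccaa
The 3 windows held 4, 2 and 1 GC boxes in the order shown. All 10 genes had a window in the table, and 9 of the 10 held at least 1 GC box, all but Chrm1, where 30.5% of all 33469 windows and 38.9% of the 21851 windows of protein-coding genes did. The median GC content of the 10 windows was 65.6%, against 54.0% over protein-coding genes. Neither the TATA motif TATAAA nor the E-box CAGCTG, both searched on both strands, occurred in any of the 10 windows, and 12.1% and 11.9% of protein-coding windows held them. These matches describe letters in a window, and no measurement of factor binding was made.

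Chrnb4 was read by 2 probe sets that both passed the filter. U42976_at stood at 3576.5, 2576.5 and 2560.3 in SHR replicates 1 to 3 and at 2197.8, 2373.9 and 3055.7 in the WKY replicates. The strains overlapped, since WKY replicate 3 lay above SHR replicates 2 and 3. The difference was 0.18 ± 0.20 (95% interval -0.28 to 0.64, adjusted p = 0.744), so the interval ran from a 0.822-fold to a 1.55-fold level in SHR. It was 0.03 without SHR replicate 1 (adjusted p = 0.982), 0.09 without WKY replicate 1 and 0.31 without WKY replicate 3. The second probe set, J05232cds_s_at, spread more widely. It read 683.2, 1315.2 and 1654.3 in SHR and 996.8, 434 and 1601.3 in WKY, a 3.69-fold range among the WKY arrays. Its difference was 0.29 ± 0.43 (interval -0.70 to 1.28, adjusted p = 0.817), and values from -0.12 to 0.65 came from leaving out 1 array.

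Chrna3 and Chrna5, the partners of Chrnb4, were each read by 1 probe set that did not pass the filter. Chrna3 (L31621_s_at) read 227.8, 713.2 and 202.9 in SHR and 231.4, 438.4 and 156.4 in WKY. Replicate 2 was the highest array in each strain, and the other arrays lay close to the pseudocount. The difference was 0.23 ± 0.39 (interval -0.68 to 1.15, adjusted p = 0.888). Chrna5 (J05231_at) read 440.1, 233.3 and 146.2 in SHR and 223.9, 316.1 and 651 in WKY, again with overlapping strains. Its difference was -0.33 ± 0.36 (interval -1.16 to 0.50, adjusted p = 0.792), and -0.58 to -0.03 with 1 array left out. The interval of Chrna3 includes a doubling in SHR and that of Chrna5 a halving, so neither was excluded.

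Chrna7 had 3 probe sets, all past the filter, and they did not give 1 answer. S53987_at read 1076, 1201.4 and 1021.8 in SHR and 753.6, 874.2 and 375.6 in WKY. All 3 SHR arrays lay above all 3 WKY arrays, the 1 case without overlap among the 18 probe sets, where 17.1% of all 8740 probe sets, and 20.7% of those tested, showed no overlap and 10.2% of those tested had SHR wholly above. The difference of 0.64 ± 0.28 (interval -0.01 to 1.29) was not called, with an unadjusted p of 0.0523 and an adjusted p of 0.366. Without WKY replicate 3, the lowest array, the difference was 0.36 (adjusted p = 0.523). A block for hybridization run gave 0.62, but it leaves SHR replicate 1 alone against the WKY arrays. A block for the fluidics module gave 0.38 (adjusted p = 0.709). The module block compares only SHR replicates 2 and 3 with WKY replicates 1 and 2, since SHR replicate 1 and WKY replicate 3 each had a module to themselves. The SHR and WKY arrays it compares were also hybridized in different runs. L31619_at read 1901.9, 2092.7 and 944.4 in SHR and 1137.2, 1728.2 and 1465.4 in WKY. There SHR held both the highest arrays and the lowest, and the difference was 0.12 ± 0.30 (interval -0.56 to 0.81, adjusted p = 0.896). L31619_g_at, designed on the same accession, read 677.5, 773.2 and 170.5 in SHR and 464.3, 651.1 and 952.9 in WKY. SHR replicate 3 was the lowest array in both L31619 probe sets, and in L31619_g_at the difference was -0.36 ± 0.43 (interval -1.35 to 0.63, adjusted p = 0.757). The estimates for Chrna7 thus spanned 1.00 log2 units, and their intervals overlap.

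**Figure D1:**
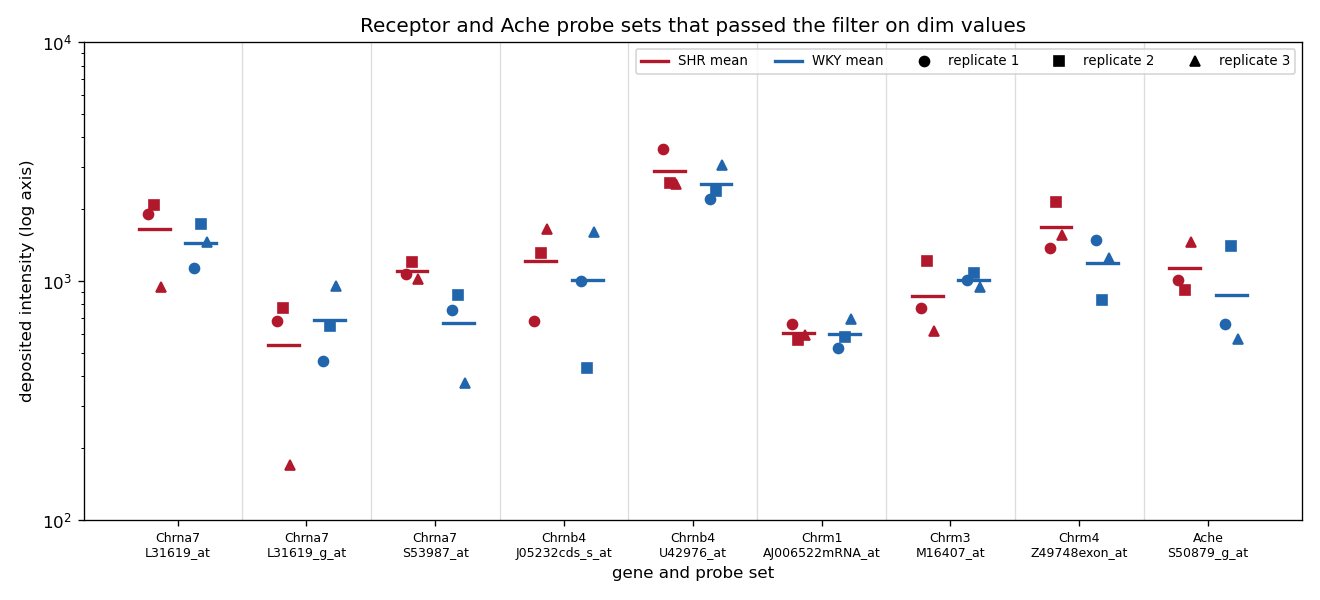
Deposited intensity (log axis) of the 9 receptor and Ache probe sets that passed the filter, by gene and probe set; each symbol is 1 array, red for SHR and blue for WKY, its shape gives the replicate, and the horizontal bar is the mean of the 3 arrays. SHR and WKY arrays overlap in all but Chrna7 S53987_at, where SHR lies between 1021.8 and 1201.4 and WKY between 375.6 and 874.2.

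The brain-type subunits Chrna4 and Chrnb2 were dim. Chrna4 (M15682_at) read 169.9, 216.6 and 430.9 in SHR and 193.1, 139.7 and 167.6 in WKY, with SHR replicate 3 alone far above the rest. Its difference was 0.34 ± 0.25 (interval -0.24 to 0.92, adjusted p = 0.679), 0.11 without SHR replicate 3 and 0.02 after blocking on the run. Chrnb2 (L31622_at) read 282.8, 439.7 and 250.2 in SHR and 318.7, 930.6 and 457 in WKY, where WKY replicate 2 was the highest. Its difference was -0.50 ± 0.35 (interval -1.32 to 0.31, adjusted p = 0.670), the most negative estimate of the 18. Without WKY replicate 2 it was -0.18 (adjusted p = 0.882).

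Among the muscarinic receptors, Chrm1 and Chrm3 couple to Gq and phospholipase C, while Chrm4 couples to Gi and lowers cyclic AMP. Chrm1 had 2 probe sets of different behaviour. AJ006522mRNA_at passed the filter and was even across arrays, at 659.8, 566 and 592.7 in SHR and 524.7, 581.8 and 690.9 in WKY. Its difference was 0.02 ± 0.23 (interval -0.52 to 0.56, adjusted p = 0.984). M16406cds_s_at lay just under the filter, at 917.1, 534.8 and 586 in SHR and 269.3, 538.6 and 296.7 in WKY. WKY replicate 2 lay just above SHR replicate 2, so the strains overlapped by that pair of arrays. At 0.65 ± 0.31 it was the most positive estimate of the 18 (interval -0.06 to 1.37, unadjusted p = 0.0671, adjusted p = 0.496). It was 1.03 with the run as a block, which leaves SHR replicate 1 alone. With the module as a block, which leaves out SHR replicate 1 and WKY replicate 3, it was 0.38 (0.796).

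Chrm3 was read by M16407_at at 772.4, 1220.1 and 618.1 in SHR and at 1007.1, 1085.3 and 944.5 in WKY. The WKY arrays were close together and fell inside the SHR range. The difference was -0.22 ± 0.26 (interval -0.81 to 0.37, adjusted p = 0.749). It was -0.45 without SHR replicate 2 and -0.04 without SHR replicate 3. The other Chrm3 probe set, AB017656_s_at, did not pass the filter and ranged 6.10-fold among the WKY arrays, from 131.8 to 803.6, with SHR between 142.5 and 444.3. Its difference was -0.23 ± 0.45 (interval -1.28 to 0.81, adjusted p = 0.901), and it turned to 0.04 without SHR replicate 1, to 0.19 without WKY replicate 3 and to 0.46 with the module as a block.

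Chrm4 was read by Z49748exon_at at 1377.9, 2136.2 and 1563.5 in SHR and at 1491.5, 835.2 and 1251.1 in WKY. Of the WKY arrays, replicate 1 alone lay inside the SHR range. The difference was 0.46 ± 0.25 (interval -0.12 to 1.04, adjusted p = 0.463), 0.29 without SHR replicate 2, 0.26 without WKY replicate 2 and 0.21 with the run as a block. The second Chrm4 probe set, M16409_at, read 16.9 to 60.5 over the 6 arrays, with every value under the pseudocount of 181.5. At that level the log2 scale can show little, and its difference was 0.04 ± 0.11 (adjusted p = 0.933).

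Ache had 3 probe sets, of which 1 passed the filter. S50879_g_at read 1009.1, 921.7 and 1463 in SHR and 658.7, 1406.7 and 569.8 in WKY. WKY replicate 2 stood among the SHR arrays and the other WKY arrays below them. The difference was 0.37 ± 0.33 (interval -0.38 to 1.12, adjusted p = 0.673). It was 0.70 without WKY replicate 2 (adjusted p = 0.319), 0.24 without WKY replicate 1, 0.20 without SHR replicate 3 and 0.16 without WKY replicate 3 (0.886), and 0.22 with the fluidics module as a block. S50879_at, on the same accession, read only 65 to 87.1 in all 6 arrays, and X70141_r_at 76.6 to 154.7. Both lay wholly under the pseudocount, with differences of -0.007 ± 0.11 (adjusted p = 0.988) and 0.03 ± 0.15 (0.963).

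**Figure D2:**
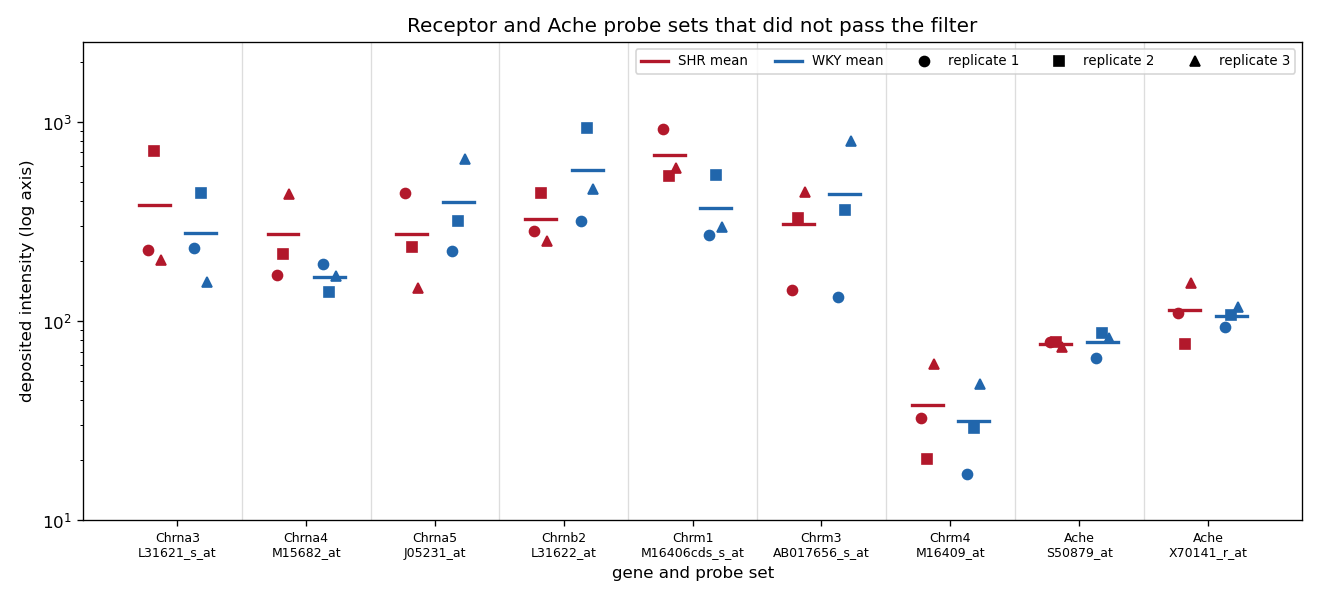
Deposited intensity (log axis) of the 9 probe sets that did not pass the filter, with symbols, colours and mean bars as in the plot of the probe sets that passed. The strains overlap in all 9, and Chrm4 M16409_at and Ache S50879_at and X70141_r_at lie under the pseudocount of 181.5 in every array.

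Over the 18 probe sets the estimates ran from -0.50 to 0.65, with 12 positive and 6 negative and a median of 0.08, where the median over all 8740 probe sets was -0.01. On this scale the interval stayed within 1 log2 unit either way for 8 of the 18. Among them were 4 of the 9 that passed the filter: Chrna7 L31619_at, Chrnb4 U42976_at, Chrm1 AJ006522mRNA_at and Chrm3 M16407_at. The rest of the 8 were dim, and Chrm4 M16409_at and Ache S50879_at and X70141_r_at lay wholly under the pseudocount. There the scale compresses any change, so their intervals do not bound it. With a pseudocount of 1, M16409_at stood at 0.24 ± 0.59. For the other 5 that passed the filter, the interval reached past 1 log2 unit in at least 1 direction. The median standard error of the 9 was 0.28, against 0.22 over all tested probe sets, and the smallest difference called anywhere in the fit was 0.58. Of the 6 genes with several probe sets, 4 gave estimates of 1 sign and 2, Chrna7 and Ache, gave both. That count rests for Ache on S50879_at at -0.007 and for Chrm4 on M16409_at at 0.04. Both lay wholly under the pseudocount, so their signs show neither accord nor conflict. Of the 54 values of the 9 dim probe sets, 25 lay below the pseudocount, and of the 54 of the 9 that passed, 1 did. WKY replicate 1 was the lowest of the 6 arrays in 6 of the 18 probe sets and the highest in 0, with a median log2 deviation from the probe set mean of -0.18, where the other 5 arrays lay between 0.005 and 0.07. SHR replicate 3 was the lowest in 5 and the highest in 5. Whether such ranks are particular to the 18 probe sets was not tested. The median intensity of WKY replicate 1 was 831.1, where the 6 arrays ran from 798.3 to 899.5.

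By clock time of hybridization the arrays fell into 2 runs, split at a gap of more than 60 minutes, and no label names a run. The first took all 3 WKY arrays and SHR replicate 1, and the second took the remaining SHR arrays. Blocking on the run, or using the first one alone, leaves a contrast of SHR replicate 1 against the WKY arrays. There the sign turned for Chrna3 (-0.11), Chrna5 (0.17), Chrna7 L31619_g_at (0.02), Chrnb4 J05232cds_s_at (-0.33) and Ache S50879_at (0.0004). Chrnb4 U42976_at stood at 0.48 (adjusted p = 0.645) against 0.18 without the block, and none of the 18 was called. Since the second run has no WKY array, it gave no difference. Blocking on the fluidics module leaves SHR replicates 2 and 3 against WKY replicates 1 and 2, because SHR replicate 1 and WKY replicate 3 shared their modules with no other array. Those SHR arrays were in the second run and those WKY arrays in the first. The module-blocked values therefore cannot separate strain from run.

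**Figure D3:**
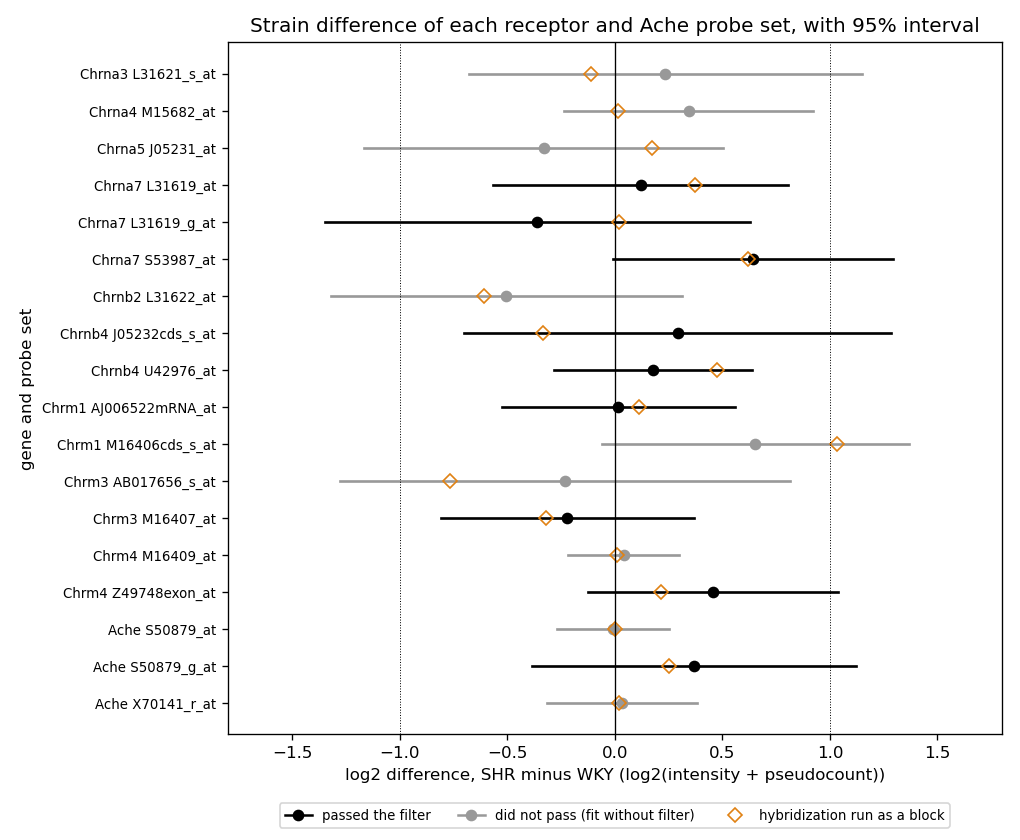
Log2 difference, SHR minus WKY, of each of the 18 probe sets with its 95% interval. Black marks probe sets that passed the filter and grey those that did not. The open diamond gives the estimate with the hybridization run as a block. Dotted lines mark a halving and a doubling for bright probe sets, and the scale understates the change of dim ones. All 18 intervals include 0, and estimates run from -0.50 (Chrnb2) to 0.65 (Chrm1 M16406cds_s_at).

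The rest of the cholinergic pathway was taken from 6 lists of 77 genes, of which 62 were on the array under a symbol of their own and 37 had a tested probe set, each gene standing by its brightest. Limma called 0 of the 37, and 3 had an unadjusted p under 0.05, beside 1.65% called and 13% at that unadjusted level over all 3144 genes. Among other receptor subunits, 7 of 12 were tested, with a median difference of -0.004. Chrnd, the delta subunit of the muscle receptor, read 693.1, 261.4 and 519.9 in SHR and 802.6, 1113.6 and 988.9 in WKY. All WKY arrays lay above all SHR arrays, as in 10.5% of tested probe sets, but the difference of -0.82 ± 0.31 was not called (adjusted p = 0.280). Chrnb1, the muscle beta subunit, stood at 0.47 ± 0.26 (0.471) and the muscarinic gene Chrm5 at -0.05 ± 0.28 (0.959). Chrna2, Chrna6, Chrna9 and Chrnb3 did not pass the filter, and Chrna10 had no probe set of its own name here.

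On the presynaptic side, 3 of 6 genes of acetylcholine synthesis, transport and breakdown were tested. Slc18a3, which loads acetylcholine into vesicles and lies within the Chat gene, read 2334.7, 1710.3 and 2308.9 in SHR and 1452.6, 1706 and 2210.7 in WKY by U09211_at. That difference was 0.23 ± 0.21 (adjusted p = 0.685). In its other probe set, X80395cds_s_at, SHR at 1893.9 to 2283.4 lay above WKY at 1496.4 to 1574.9, at 0.42 ± 0.16 (0.291). Chat, which makes acetylcholine, stood at 0.37 ± 0.38 (0.717), with WKY replicate 1 at 223.6 and the other arrays at 717.7 to 902.3. Colq, the collagen tail that anchors acetylcholinesterase, stood at -0.07 ± 0.26 (0.933). Of 3 tested genes of receptor assembly and clustering, the synaptic organizer Agrn stood at -0.36 ± 0.17 (0.393), the 14-3-3 protein gene Ywhah at -0.29 ± 0.13 (0.380) and the calcium sensor gene Vsnl1, whose product binds nicotinic receptors, at 0.31 ± 0.18 (0.486).

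Downstream of the receptors, 11 of 23 genes of Gq and Gi signalling were tested, with a median of 0.07 and a range of -0.62 to 0.74. Prkce, a protein kinase C isoform activated by diacylglycerol, was read by M18331_g_at at 2087.1, 2271.4 and 2411.4 in SHR and at 1086.9, 1586.7 and 1188 in WKY. The strains did not overlap, and the difference of 0.74 ± 0.19 was not called (adjusted p = 0.110). Its 3 other tested probe sets gave 0.59 (0.275) and 0.50 (0.395), both without overlap, and 0.29 (0.566) with overlapping strains. Plcb1, a phospholipase C, stood at 0.34 ± 0.15 (0.369) and Prkcd, another kinase C, at -0.62 ± 0.34 (0.455). Of 14 genes of depolarization-gated channels, 8 were tested, with a median of 0.29. Cacnb1, a calcium channel beta subunit, stood at 0.55 ± 0.23 (0.329), Cacna1d, an L-type pore subunit, at 0.39 ± 0.19 (0.414) and Cacna1b, the N-type pore subunit, at -0.61 ± 0.31 (0.421). Other probe sets of these genes differed: a second tested one of Cacna1b stood at 0.03, and M99221_s_at of Cacna1d, which did not pass the filter, read 85.5 to 161.4 in SHR and 441.2 to 539.2 in WKY, at -1.16 ± 0.21 (adjusted p = 0.0602 without the filter). Of 15 genes of other transmitters at chromaffin cells, 5 were tested, with a median of 0.09. There the opioid receptor gene Oprm1 stood at 0.42 ± 0.32 (0.622), the peptide receptor gene Vipr1 at -0.21 ± 0.28 (0.789) and the ATP-gated channel gene P2rx2 at 0.09 ± 0.14 (0.824). Further tested probe sets had the opposite sign, 1 of Oprm1 at -0.33 and 2 of P2rx2 at -0.08 and -0.43, all uncalled.

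The adrenal label was checked with markers. Th, Chgb, Pnmt and Ddc of chromaffin cells read from 4707.1 to 21252.3 over the 6 arrays, and Cyp11a1, Star, Scarb1 and Cyp21a1 of the cortex from 20377 to 105012.6. No marker listed here was at 0. Marker intensities were summed with 1 tested probe set per gene, the brightest, and the sums did not overlap between strains for chromaffin, nerve and glial markers. How often sums of other genes separate the strains was not tested. The 10 chromaffin genes tested summed to 43125 to 54283 in SHR and 57032 to 65536 in WKY, with 1 of the 10, Dbh, called lower (-1.29 ± 0.15, limma adjusted p = 0.00548). The sums already overlapped without Dbh alone, with SHR up to 51813.5 and WKY from 51397. They also overlapped without Pnmt (-0.57, 0.0764) alone, with SHR up to 39728 and WKY from 38009. With any other 1 gene of the list left out they stayed apart. Without both Dbh and Pnmt they lay at 28904 to 37259 and 32375 to 38063. Of the 10 differences 8 were negative, beside 1622 of all 3144 genes, with a median of -0.49. An unadjusted limma p under 0.05 was reached by 6, beside 13% of all genes. Slc18a1 (-0.82, 0.191), Scg2 (-0.53, 0.322) and Penk (-0.45, 0.492) had WKY wholly above, as did 10.5% of all tested probe sets. Npy stood at -0.58 (0.329), and none of these genes was called. Th (-0.02), Chgb (-0.08) and Ddc (0.14) lay near 0, and Slc18a2, a vesicular monoamine transporter gene, stood at 0.91 (0.329) with SHR wholly above. The 6 tested genes of neurons and nerve fibres summed to 4337 to 4973 in SHR and 5915 to 6663 in WKY, and the strains did not overlap with any 1 of the 6 left out. All 6 differences were negative, beside 1622 of all 3144 genes. Of the 6, 0 were called, and the largest was that of Prph at -1.14 ± 0.32 (0.146). Other probe sets of the listed nerve genes, dim ones included, took both signs, from -0.82 (Uchl1 rc_AA859882_s_at) to 0.59 (Nefm, dim). The 3 Schwann cell and glial genes summed to 4100 to 4806 in SHR and 4919 to 6027 in WKY, with 0 called and a median difference of -0.03. That separation came from Pmp22 (-0.46), since without it the sums overlapped, at 2010 to 2454 and 1800 to 2851. The 4 tested genes of skeletal muscle, the tissue of Chrnd and Chrnb1, summed to 1945 to 3308 and 2859 to 3271, which overlap. Fat and leukocyte sums also overlapped, with 1 gene called lower in each list, Cfd (-2.00) of fat cells and Cd74 (-1.76) of leukocytes. Whether these marker levels have a part in the receptor values was not tested. In whole glands, fewer cells of a type and less RNA per cell cannot be told apart.

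**Figure D4:**
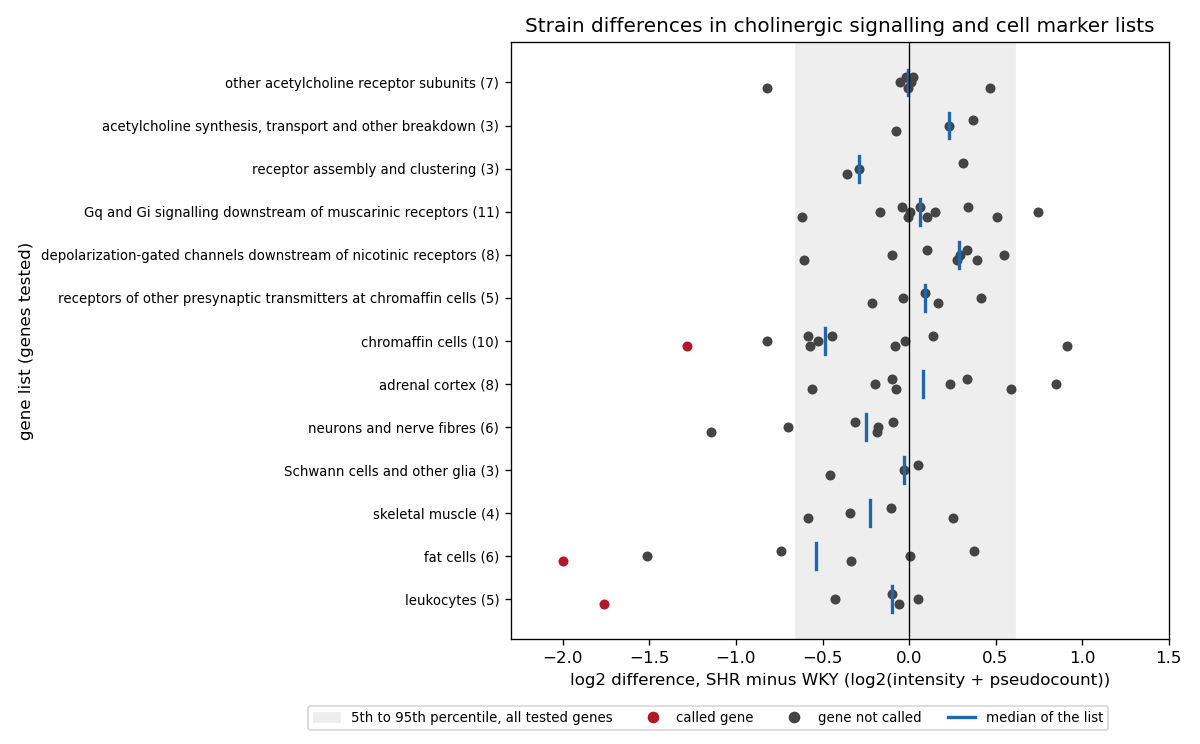
Log2 difference, SHR minus WKY, of each gene, by its brightest tested probe set, in 6 cholinergic and related lists and 7 cell marker lists, with the number tested in brackets; red points were called, blue bars are list medians, and the grey band spans the 5th to 95th percentile of all 3144 tested genes (-0.65 to 0.61). The 37 genes of the 6 upper lists hold no called gene, and the 3 called genes are Dbh, Cfd and Cd74.

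Array profiles were also matched across genes, by the root mean square distance between log2 values centred on each probe set's mean, over the 6 arrays. For Chrna7 S53987_at, the tested receptor probe set of smallest unadjusted p, the nearest of 3143 other genes were Bcl2l1 at a distance of 0.053, Pi4ka at 0.072 and Cdk17 at 0.079, where the median gene lay at 0.498. Bcl2l1 read 1961.8 to 2143.5 in SHR and 756.9 to 1784.2 in WKY, with WKY replicate 3 lowest, as in Chrna7, and its own difference of 0.63 was not called (adjusted p = 0.366). For Chrnb4 U42976_at, the receptor probe set of highest mean, the nearest were Prmt7 at 0.058, Cga at 0.069 and the pseudogene Tnxa-ps1 at 0.073, where the median lay at 0.303. These distances describe 6 arrays, and no test was made of them.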

How the data were processed

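For every probe set the authors deposited a single linear intensity from each array. The expression algorithm is not given in the sources used here. After trimming 2% at each end, means lay between 2499.6 and 2499.9 in all 6 arrays, so the values had been scaled, and medians ran from 798.3 to 899.5. Array settings, other values the authors deposited (lot, station, module, hybridization time), showed 1 chip lot. A gap of more than 60 minutes between successive clock times of hybridization was taken as the start of a new run, which gave 2 runs.

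Of 8799 probe sets, 59 controls were left out. Probe sets were named from the platform annotation and updated through RefSeq GRCr8: 7006 of 8740 had 1 symbol, 308 several and 1426 none. Values were taken as log2(intensity + 181.5), the 20th percentile of all values, and probe sets above the 40th percentile of mean log2 value were kept (5244). Strains were compared with limma 3.58.1 in R 4.3.3 (lmFit, eBayes with trend, two-sided) over all 6 arrays, with Benjamini-Hochberg adjustment over all tested probe sets. Alternatives covered scaling, pseudocount, filter, variance prior, replicate number, run, module and each array left out. The steps were tested on simulated data.

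The members and gene lists were chosen with earlier results of these data known. Named were every probe set of the 10 genes, up to 3 genes of smallest p per pathway list and up to 4 of highest mean per marker list. Called genes were added, and so were genes and probe sets picked after their values were seen. Those were Dbh, Prph, Cfd, Slc18a1, Slc18a2, Scg2, Npy, Penk, Nefm, Pmp22 and further probe sets of pathway and marker genes. The marker sums without Dbh, Pnmt, both of them or Pmp22 were picked in the same way. No detection call was used, so a dim probe set may read background.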

Additional observations from a re-analysis of the deposited data

How the results depend on the processing

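None of the 18 receptor and Ache probe sets was called by limma under any of the 18 alternatives, and 8 kept their sign under every alternative that gave them a value. The other 10 turned sign at least once, all uncalled. Blocked on the hybridization run, and in the first run alone, the values were -0.11 (Chrna3), -0.33 (Chrnb4 J05232cds_s_at), 0.018 (Chrna7 L31619_g_at), 0.17 (Chrna5) and 0.00041 (Ache S50879_at). With the module as a block they were 0.00045 (Ache S50879_at) and 0.46 (Chrm3 AB017656_s_at), and with a common median 0.0048 (Ache S50879_at). Without 1 array the lowest and highest values were -0.069 and 0.44 (Chrna7 L31619_at), -0.63 and 0.095 (Chrna7 L31619_g_at), -0.053 and 0.10 (Chrm1 AJ006522mRNA_at), -0.64 and 0.19 (Chrm3 AB017656_s_at), -0.16 and 0.48 (Chrna3), -0.12 and 0.65 (Chrnb4 J05232cds_s_at), -0.033 and 0.10 (Chrm4 M16409_at), -0.065 and 0.13 (Ache X70141_r_at), and -0.044 and 0.018 (Ache S50879_at).

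Over all tested probe sets the number called went from 102 to 60 without a trend, 20 when blocked on the run, 1 in the first run alone, 46 when blocked on the module and 36 to 59 with each of the 6 arrays left out in turn (36 without SHR replicate 2), where fewer samples or degrees of freedom remain; the cause of the fall without a trend was not tested. With the replicate block 53 were called and 0 of the receptor and Ache probe sets. Same-numbered arrays deviated together at r = 0.0009, 0.01 and 0.07 across probe sets, and 1 of the 3 SHR arrays correlated best with its own number. With values centred over only 3 arrays per strain, these correlations cannot decide whether same-numbered arrays were processed together. Precision is limited by 3 arrays per strain: for 10 of the 18 probe sets the interval reached past 1 log2 unit. For the dimmest the pseudocount compresses any difference and its interval.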
